A study of Mus musculus with 2 samples.

Results

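The genes described here encode 10 secreted ligands of the transforming growth factor beta (TGF-beta) superfamily: Tgfb1, Tgfb2, Tgfb3, Bmp2, Bmp4, Bmp5, Bmp6, Bmp7, Bmp10 and Gdf15. They were listed by name as ligands, without a threshold on any measured value but with earlier results of these data known, and all 10 were located among 21938 protein-coding gene records of GENCODE vM21 on mouse genome build mm10. The measurement was DNase-seq, in which DNase I cuts accessible chromatin in nuclei and the cut ends are sequenced. The material was heart tissue from newborn B6NCrl mice, aged 0 days, in 1 group of 2 libraries with no treatment and no altered allele in the labels. The labels number the libraries as biological replicates 1 and 2, give them separate biosamples but the same donor label, and record no sex. No second tissue, age or control was part of the data, so each library's value is given, no test between groups was possible, and an SD below covers only these 2 libraries and may be technical.

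Ligands of this family are made as precursors, cleaved, and bind pairs of type I and type II serine/threonine kinase receptors, which phosphorylate SMAD proteins that then enter the nucleus. The TGF-beta branch signals mainly through Smad2 and Smad3 and is known in the heart for valve formation, fibroblast activation and scarring, while the bone morphogenetic protein (BMP) branch signals mainly through Smad1, Smad5 and Smad9 and is known for heart induction, cushion formation and trabecular growth. Gdf15 is a distant member of the family, induced by cell stress, that acts on a receptor in the hindbrain.

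For each library the authors deposited peaks of 150 bp and wider hotspots, both called in that library alone. Every peak carries a whole-number value from the authors, which reached 148 at most on the chromosomes analysed and whose median was 36 in replicate 1 and 35 in replicate 2. The unit of this value is not given in the sources used here, and it served to rank and describe peaks. Replicate 1 held 164657 peaks and replicate 2 held 144708, a ratio of 1.14, and the read totals are not known, so absence of a weak peak does not show a closed site. Promoter peaks in both libraries stood at 6 of 6 cardiomyocyte, 4 of 4 endothelial and 3 of 3 fibroblast markers. They also stood at 3 of 3 smooth muscle and 2 of 3 epicardial markers, and at 63.7% of all protein-coding genes. None of the 3 erythroid and 3 hepatocyte markers had one. However, Syt1 and Snap25 of the 3 neuronal markers did, as did 1 of 3 each of the skeletal muscle, keratinocyte and macrophage markers. These counts therefore do not identify the tissue by themselves. In bulk tissue, a site open in few cells cannot be told apart from a site weakly open in many.

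In both libraries, 8 of the 10 ligand genes carried a promoter peak. A promoter peak here has its centre within 500 bp of any annotated transcription start site (TSS) of the gene. The background is high: 63.7% of all protein-coding genes had such a peak in both libraries, and 92.7% of those at or above the median of the CpG observed-to-expected ratio around the 5′ end did. Tgfb1, Tgfb3, Bmp2, Bmp6 and Bmp7 stood above that median, each with a promoter peak in both libraries. The other ligand genes stood below it. Taken alone, replicate 1 had one at 8 ligand genes and at 66.0% of all genes, and replicate 2 at 9 ligand genes and at 65.2%. Bmp5 had a promoter peak in replicate 2 only, and 3.78% of all genes had one in exactly 1 library. Bmp10 had none in either library, and 32.5% of all genes shared that state. Hotspots gave the same genes, with 8 of 10 carrying a promoter hotspot in both libraries against 64.5% of all genes. The highest promoter value of a ligand gene had a median of 66.5 over the 8 genes with a peak in replicate 1, against 88 over 14490 protein-coding genes. In replicate 2 it was 68 over 9 ligand genes, against 84 over 14301 genes. The ligand promoters with a peak therefore carried values below the median of open promoters in each library, and Bmp4 was the only ligand gene above that median in both. That Bmp4 value came from the start of a retained-intron transcript. With TSSs of protein-coding transcripts only, the mean at Bmp4 was 32.5 in place of 91.5.

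**Figure D1:**
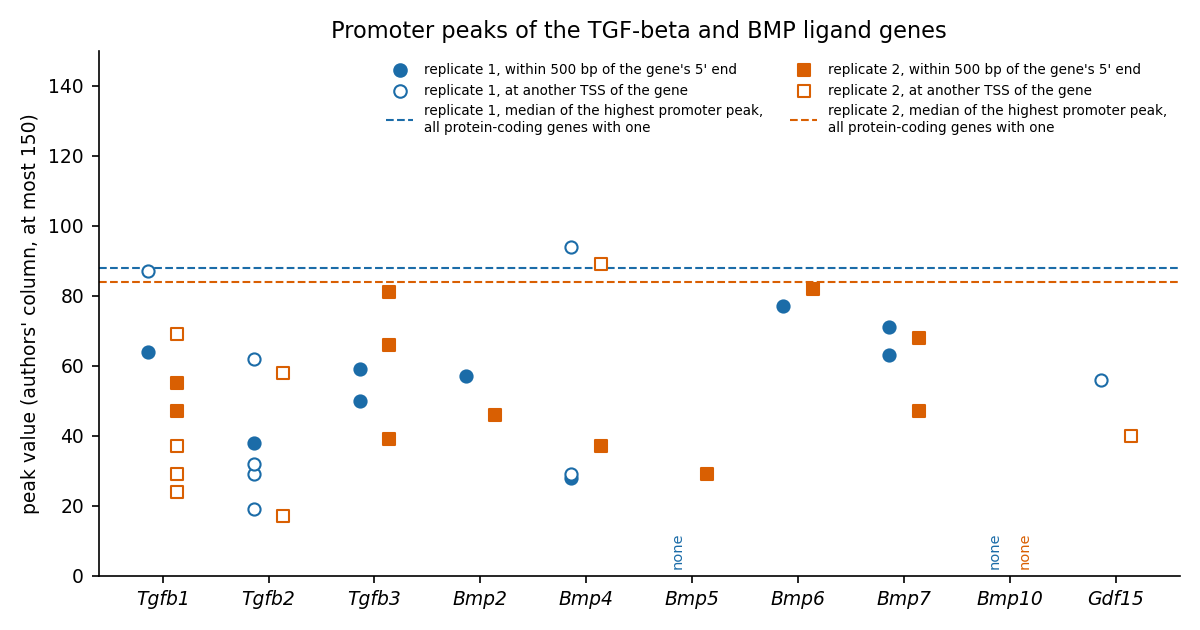
Value of every peak within 500 bp of a TSS of each ligand gene (vertical axis, authors' value) for replicate 1 (blue circles) and replicate 2 (orange squares), filled where the peak lies within 500 bp of the gene's 5′ end and open where it lies at another TSS of the gene. Dashed lines mark the median highest promoter value of all protein-coding genes with a promoter peak, 88 in replicate 1 and 84 in replicate 2. The Bmp4 peak inside the gene lies above both at 94 and 89.

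Tgfb1 encodes the ligand of the family best known for immune restraint and fibrosis. The gene (ENSMUSG00000002603.15) lies on the plus strand at chr7:25687002-25705077. At its 5′ end a peak of 64 in replicate 1 and 55 in replicate 2 (59.5 ± 6.36, SD, n = 2) lay upstream of the first exon, with its centre 171 and 151 bp before the TSS. The replicate 1 peak at chr7:25686756-25686905, plus strand, is shown because it is the Tgfb1 promoter site outside any exon, with matches to GGGCGG (a GC box bound by SP and KLF factors, searched on both strands) in capitals.
Tgfb1 promoter: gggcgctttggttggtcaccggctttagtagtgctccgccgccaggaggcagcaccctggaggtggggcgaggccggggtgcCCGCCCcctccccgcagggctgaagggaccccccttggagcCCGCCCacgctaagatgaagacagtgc
It was 70.7% G or C and held the GC box at bases 83 and 124, both on the reverse strand. Over all peaks, 12.1% in replicate 1 and 13.3% in replicate 2 held this motif.

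A higher Tgfb1 peak lay inside the gene. At chr7:25689296-25689445, 2369 bp from the 5′ end, its values were 87 and 69 (78.0 ± 12.7, SD, n = 2). This peak stood above 93.3% of peaks in replicate 1 and 87.5% in replicate 2. It counted as a promoter peak because an annotated transcript of Tgfb1 subject to nonsense-mediated decay starts 444 bp from its centre. Between these sites replicate 2 listed 4 further peaks of 47, 29, 37 and 24, and replicate 1 listed none. The promoter stretch of Tgfb1 was thus covered by 2 peaks in replicate 1 and 6 in replicate 2, and by 595 and 2052 bp of hotspots.

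Around Tgfb1 the chromosome is crowded. The window of the gene and 100 kb on either side held 43 and 47 peaks (45.0 ± 2.83, SD, n = 2) and 11 other protein-coding genes. Of these peaks, 18 in replicate 1 and 16 in replicate 2 lay within 500 bp of another gene's TSS, among them the highest of the window, at Bckdha (122 and 122) and Hnrnpul1 (123 and 111). Only 3 and 9 peaks had Tgfb1 as the nearest protein-coding gene, measured to gene bodies. The highest flank peak over 1 kb from every TSS had values of 83 and 68 and lay 69.2 kb from the Tgfb1 5′ end but 1454 bp from the Hnrnpul1 TSS, so it cannot be assigned to Tgfb1 by position.

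Tgfb2 encodes the TGF-beta ligand whose loss in mice is known to disturb the outflow tract and the cushions. It lies on the minus strand at chr1:186622792-186705989 (ENSMUSG00000039239.14). Its highest promoter peak, in the 5′ untranslated region (UTR), had values of 62 and 58 (60 ± 2.83, SD, n = 2), with centres 538 and 618 bp inside the gene. The antisense gene Gm29491 starts 5 bp from a Tgfb2 TSS, so peaks there cannot be assigned to either gene. Replicate 1 alone listed a peak of 38 at the 5′ end itself, and 2 more of 32 and 29 near an internal TSS. Both libraries listed a peak of low value, 19 and 17, at an internal TSS 56.4 kb into the gene. The hotspot at that site nevertheless had the highest −log10 q-value listed, 100, in both libraries. At the 5′ UTR peak the hotspot had 100 in replicate 1 and 3.08 in replicate 2.

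The highest sites of the Tgfb2 window lay beyond its 3′ end, not at its promoter. The peak at chr1:186610016-186610165 had values of 109 and 99 (104 ± 7.07, SD, n = 2), above 98.1% of all peaks of replicate 1. It was intergenic, 95.9 kb downstream of the 5′ end, and Tgfb2 had the nearest protein-coding TSS, at 39899 bp. Its sequence is shown on the minus strand because it was the highest site over 1 kb from every TSS that had Tgfb2 as its nearest gene, with a match to the AP-1 motif TGANTCA in capitals.
Tgfb2 downstream site: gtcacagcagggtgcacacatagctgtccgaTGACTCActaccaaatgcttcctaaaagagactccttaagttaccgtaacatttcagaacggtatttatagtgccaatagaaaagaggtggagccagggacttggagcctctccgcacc
The match was TGACTCA at base 32, and 7.25% of all peaks in replicate 1 and 7.17% in replicate 2 held the motif. A neighbouring intergenic peak, 119 kb downstream of the 5′ end, had a value of 95 in each library. Within the gene, the highest intronic peak had values of 66 and 68, 42.4 kb from the 5′ end.

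The number of peaks at Tgfb2 differed between the libraries. Its window held 37 peaks in replicate 1 and 23 in replicate 2 (30.0 ± 9.90, SD, n = 2), a ratio of 1.61, against a median ratio of 1.1 and a 95th percentile of 1.65 over the 20506 protein-coding genes with a peak in both libraries. Inside the gene it was 14 peaks against 6. The 21 peaks found in both libraries had a median value of 46.0 in each, whereas the 16 found in replicate 1 alone had a median of 35.0 and reached at most 46.

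Tgfb3 encodes the ligand known for palate fusion, and it lies on the minus strand at chr12:86056745-86079041 (ENSMUSG00000021253.7). At the 5′ end a peak of 59 and 66 (62.5 ± 4.95, SD, n = 2) covered the TSS, and a peak of 50 and 39 lay 410 and 430 bp inside, in the 5′ UTR. A stronger site lay just upstream, with values of 89 and 81, in an exon of Gm48008, a noncoding transcript on the opposite strand whose TSS lies 397 bp from that of Tgfb3. Its centre was 510 bp from the TSS in replicate 1 and 490 bp in replicate 2, so the 500 bp limit counted it in replicate 2 only. This boundary set the highest promoter values of 59 and 81. With a limit of 1000 bp they were 89 and 81, with a mean of 85.0.

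Most peaks near Tgfb3 lay over 1 kb from any TSS. The window held 38 and 30 peaks (34 ± 5.66, SD, n = 2), of which 32 and 23 were such distal peaks. Per 100 kb this was 12.4 distal peaks, more than in the windows of 95.3% of protein-coding genes. The highest, of 99 and 92 (95.5 ± 4.95, SD, n = 2), lay at chr12:86104456-86104605 in replicate 1, in an intron of Ift43, which encodes a ciliary transport protein, 25.5 kb upstream of Tgfb3 and 12409 bp from the Ift43 TSS. Another, of 89 and 71, lay 78.2 kb downstream of the 5′ end in an intron of Ttll5. Measured to gene bodies, Tgfb3 was the nearest protein-coding gene of 4 and 3 peaks, and measured to TSSs it was the nearest of 10 and 7. The body of Tgfb3 itself held 1 peak outside the promoter in replicate 1 and 0 in replicate 2.

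Bmp2 encodes a BMP made in the myocardium next to the forming cushions, and it was the ligand gene with the fewest peaks around it. It lies on the plus strand at chr2:133552159-133562885 (ENSMUSG00000027358.6), with no other protein-coding gene within 100 kb. The window held 4 peaks in replicate 1 and 9 in replicate 2 (6.5 ± 3.54, SD, n = 2), which is 3.08 per 100 kb, and 17.5% of protein-coding genes had fewer per 100 kb. Every peak of replicate 1 was found in replicate 2, and the 5 found in replicate 2 alone had values of at most 34. The promoter peak at chr2:133552136-133552285 had values of 57 and 46 (51.5 ± 7.78, SD, n = 2); 22% of open promoters in replicate 1 and 16.5% in replicate 2 were lower. The next, of 42 and 43, lay 1828 bp upstream. The CpG observed-to-expected ratio within 500 bp of the Bmp2 5′ end was 1.08, higher than at 99.7% of protein-coding genes.

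Bmp4 encodes a BMP known for the induction and septation of the heart. The gene, on the minus strand at chr14:46383520-46390669 (ENSMUSG00000021835.15), carried the highest promoter value of the 10 genes, although not at its 5′ end. The peak at chr14:46387336-46387485 had values of 94 and 89 (91.5 ± 3.54, SD, n = 2) and lay 3258 bp inside the gene, in an intron by GENCODE. By RefSeq, this peak overlapped 4 exon records, counted over any gene, and 0 coding records, so the term intronic rests on GENCODE. A retained-intron transcript of Bmp4 starts 107 bp from its centre, and the antisense gene Gm15222 starts 215 bp from a Bmp4 TSS, so the site cannot be assigned to 1 transcript. At the 5′ end itself the values were 28 and 37 (32.5 ± 6.36, SD, n = 2). The intronic site is shown on the minus strand because the highest promoter value of the 10 genes rests on it, with GC boxes (GGGCGG) in capitals.
Bmp4 intronic site: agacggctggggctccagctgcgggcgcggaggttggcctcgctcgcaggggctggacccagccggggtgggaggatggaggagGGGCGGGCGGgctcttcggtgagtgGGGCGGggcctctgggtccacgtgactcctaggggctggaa
It was 74.0% G or C, and its matches began at bases 85, 89 and 110, and those at 85 and 89 overlap. With TSSs of protein-coding transcripts only, the Bmp4 promoter value was that of the 5′ end, 32.5.

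The Bmp4 window held 14 and 19 peaks (16.5 ± 3.54, SD, n = 2), or 7.97 per 100 kb, and 39.2% of protein-coding genes had fewer per 100 kb. This was below the median of all protein-coding genes, 9.76, and within their quartiles of 5.04 and 14.2. Inside the gene 2 peaks in replicate 1 and 3 in replicate 2 lay outside any promoter, the highest at 45 in each library in an intron. The highest flank peaks had values of 47 and 44, 73.1 kb downstream of the 5′ end, and 46 and 38, 7762 bp upstream. The downstream peak was nearer to the TSS of the protein-coding gene Gm15217 than to any of Bmp4.

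Bmp5, Bmp6 and Bmp7 encode closely related BMPs. Bmp5 lies on the plus strand at chr9:75775364-75900310 (ENSMUSG00000032179.7), and its promoter showed the weakest call of the 10 genes apart from Bmp10. Replicate 1 listed no peak there, and replicate 2 listed a peak of 29 at chr9:75775316-75775465, below its library median of 35, in a hotspot of 77 bp. The accessible sites of Bmp5 lay in the intron that follows, where a peak 3587 bp from the 5′ end had values of 55 and 68 (61.5 ± 9.19, SD, n = 2) and a second at 3847 bp had 38 and 49. The highest of the window by the mean of both libraries, of 66 and 64 (65.0 ± 1.41, SD, n = 2), lay 135 kb from the 5′ end, beyond the 3′ end of the gene, in an intron of the antisense gene Gm26903. The window held 17 and 23 peaks (20 ± 4.24, SD, n = 2), or 6.15 per 100 kb. Of the 23 peaks of replicate 2, 8 had no partner, with a median value of 21.

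Bmp6, which is also known for the control of iron through hepcidin, had 1 promoter peak in each library. The gene lies on the plus strand at chr13:38345107-38500302 (ENSMUSG00000039004.6). This peak, at chr13:38344976-38345125 in replicate 1 and chr13:38344996-38345145 in replicate 2, had values of 77 and 82 (79.5 ± 3.54, SD, n = 2), with its centre 56 and 36 bp upstream of the TSS, in a hotspot of 314 and 332 bp. The part of the replicate 1 peak upstream of the TSS, chr13:38344976-38345106 on the plus strand, is shown because it was the highest peak covering the 5′ end of a ligand gene and because none of the motifs searched matched in it.
Bmp6 promoter: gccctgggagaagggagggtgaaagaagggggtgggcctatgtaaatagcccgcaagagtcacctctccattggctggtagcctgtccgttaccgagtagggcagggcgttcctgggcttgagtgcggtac
The stretch of 131 bp was 60.3% G or C. Bmp6 is the longest of the 10 genes, at 155.2 kb, and its body held 15 and 14 peaks. Of these, 14 and 13 lay over 500 bp from every TSS, the highest at 60 and 62, 65.5 kb inside. The window held 44 and 32 peaks (38.0 ± 8.49, SD, n = 2), or 10.7 per 100 kb. Its highest flank peak, of 80 and 74, lay 236 kb from the 5′ end on the far side of the gene and nearer to the TSS of Txndc5 than to that of Bmp6.

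Bmp7, known for kidney development and for a role beside Bmp6 in the cushions, lies on the minus strand at chr2:172868012-172940321 (ENSMUSG00000008999.7). A pair of peaks stood at its promoter, of 71 and 68 (69.5 ± 2.12, SD, n = 2) with the centre 30 and 50 bp upstream of the TSS, and of 63 and 47 (55.0 ± 11.3, SD, n = 2) at 310 and 270 bp upstream. A higher peak lay in an intron, 26.1 kb inside the gene, with values of 81 and 79 (80.0 ± 1.41, SD, n = 2). It is shown on the minus strand, chr2:172914176-172914325, because it was the highest intronic peak of any of the 10 genes outside a promoter, with a match to the short SMAD motif GTCTG in capitals.
Bmp7 intronic site: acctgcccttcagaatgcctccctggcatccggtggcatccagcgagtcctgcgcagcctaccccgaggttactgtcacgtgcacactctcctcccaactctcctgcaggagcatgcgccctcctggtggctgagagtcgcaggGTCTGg
The match lay at base 145, and 32.1% of all peaks in each library held it. Other intronic peaks of Bmp7 had values of 57 and 63 at 10.1 kb and 55 and 51 at 1450 and 1430 bp from the 5′ end.

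Like Tgfb2, Bmp7 had many more peaks in replicate 1. The window held 44 and 28 peaks (36 ± 11.3, SD, n = 2), a ratio of 1.57. Inside the gene the difference was 17 against 6. Of the replicate 2 peaks, 27 of 28 had a partner, against 27 of 44 in replicate 1, and the 17 peaks of replicate 1 without a partner had a median value of 36, against 57.0 for those with one. The highest flank peak over 1 kb from every TSS had values of 93 and 79 but lay 1727 bp from the TSS of Rbm38. The highest with Bmp7 as the nearest gene, of 74 and 77 (75.5 ± 2.12, SD, n = 2), lay 77050 bp from the 5′ end, beyond the 3′ end.

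Bmp10 encodes a ligand made by cardiomyocytes, first of the trabeculae and later mainly of the right atrium, that signals through Acvrl1. It lies on the plus strand at chr6:87428994-87437677 (ENSMUSG00000030046.6). Neither library listed a peak or a hotspot within 500 bp of its only annotated TSS, and the gene body held 1 peak in each library, of 44 and 40, in the 3′ UTR. Upstream, at chr6:87424196-87424345, with its centre 4723 bp before the TSS, both libraries had a peak, of 90 and 78 (84.0 ± 8.49, SD, n = 2). This intergenic site was above 94.2% of all peaks of replicate 1 and was the highest of the Bmp10 window. It is shown on the plus strand because it was the strongest site of a gene without a promoter peak, with a match to the GATA motif AGATAA (read here on the reverse strand) in capitals.
Bmp10 upstream site: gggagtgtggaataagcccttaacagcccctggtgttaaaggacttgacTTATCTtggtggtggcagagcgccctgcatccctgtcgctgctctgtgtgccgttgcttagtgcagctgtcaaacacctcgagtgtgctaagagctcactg
The match began at base 50, and 8.47% of all peaks in replicate 1 and 7.98% in replicate 2 held this motif. A weaker peak of 43 and 29 lay 6523 and 6563 bp upstream. The window held 25 and 20 peaks (22.5 ± 3.54, SD, n = 2), or 10.8 per 100 kb, and 56.0% of protein-coding genes had fewer per 100 kb.

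Gdf15 lies on the minus strand at chr8:70629393-70632456 (ENSMUSG00000038508.7) and is the shortest of the 10 genes, at 3.06 kb. Its highest peaks lay over its coding sequence. At chr8:70629936-70630085, 2445 bp from the 5′ end, the value was 83 in each library, and at 2665 and 2705 bp it was 81 and 71 (76.0 ± 7.07, SD, n = 2). The promoter peak at chr8:70631636-70631785, in the 5′ UTR and 384 bp from the nearer TSS, had 56 and 40 (48.0 ± 11.3, SD, n = 2), the lowest mean of the 8 genes with a promoter peak in both libraries. The coding exon site is shown on the minus strand because here an exon, not the promoter, carried the stronger peak, with a match to the GC box in capitals.
Gdf15 coding exon site: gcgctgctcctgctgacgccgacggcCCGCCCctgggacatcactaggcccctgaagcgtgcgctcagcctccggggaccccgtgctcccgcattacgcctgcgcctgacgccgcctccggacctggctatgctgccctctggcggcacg
The match began at base 27, on the reverse strand, and the site was 73.3% G or C. A further peak of 58 and 61 lay 1775 bp upstream.

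The surroundings of Gdf15 were the most densely accessible of the 10 genes. Its window held 57 and 55 peaks (56.0 ± 1.41, SD, n = 2), or 27.6 per 100 kb, and 99.4% of protein-coding genes had fewer per 100 kb. It also held 11 other protein-coding genes, and 15 and 17 of the peaks stood at their TSSs, led by Lsm4 (126 and 122) and Ell (122 and 122). Counting only peaks over 1 kb from every TSS, the density was 15.8 per 100 kb, still above that of 99.1% of genes. A distal peak of 113 and 111 lay 4746 bp from the Lsm4 TSS and 49955 bp upstream of Gdf15. Measured to gene bodies, Gdf15 was the nearest protein-coding gene of 7 peaks in each library.

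**Figure D2:**
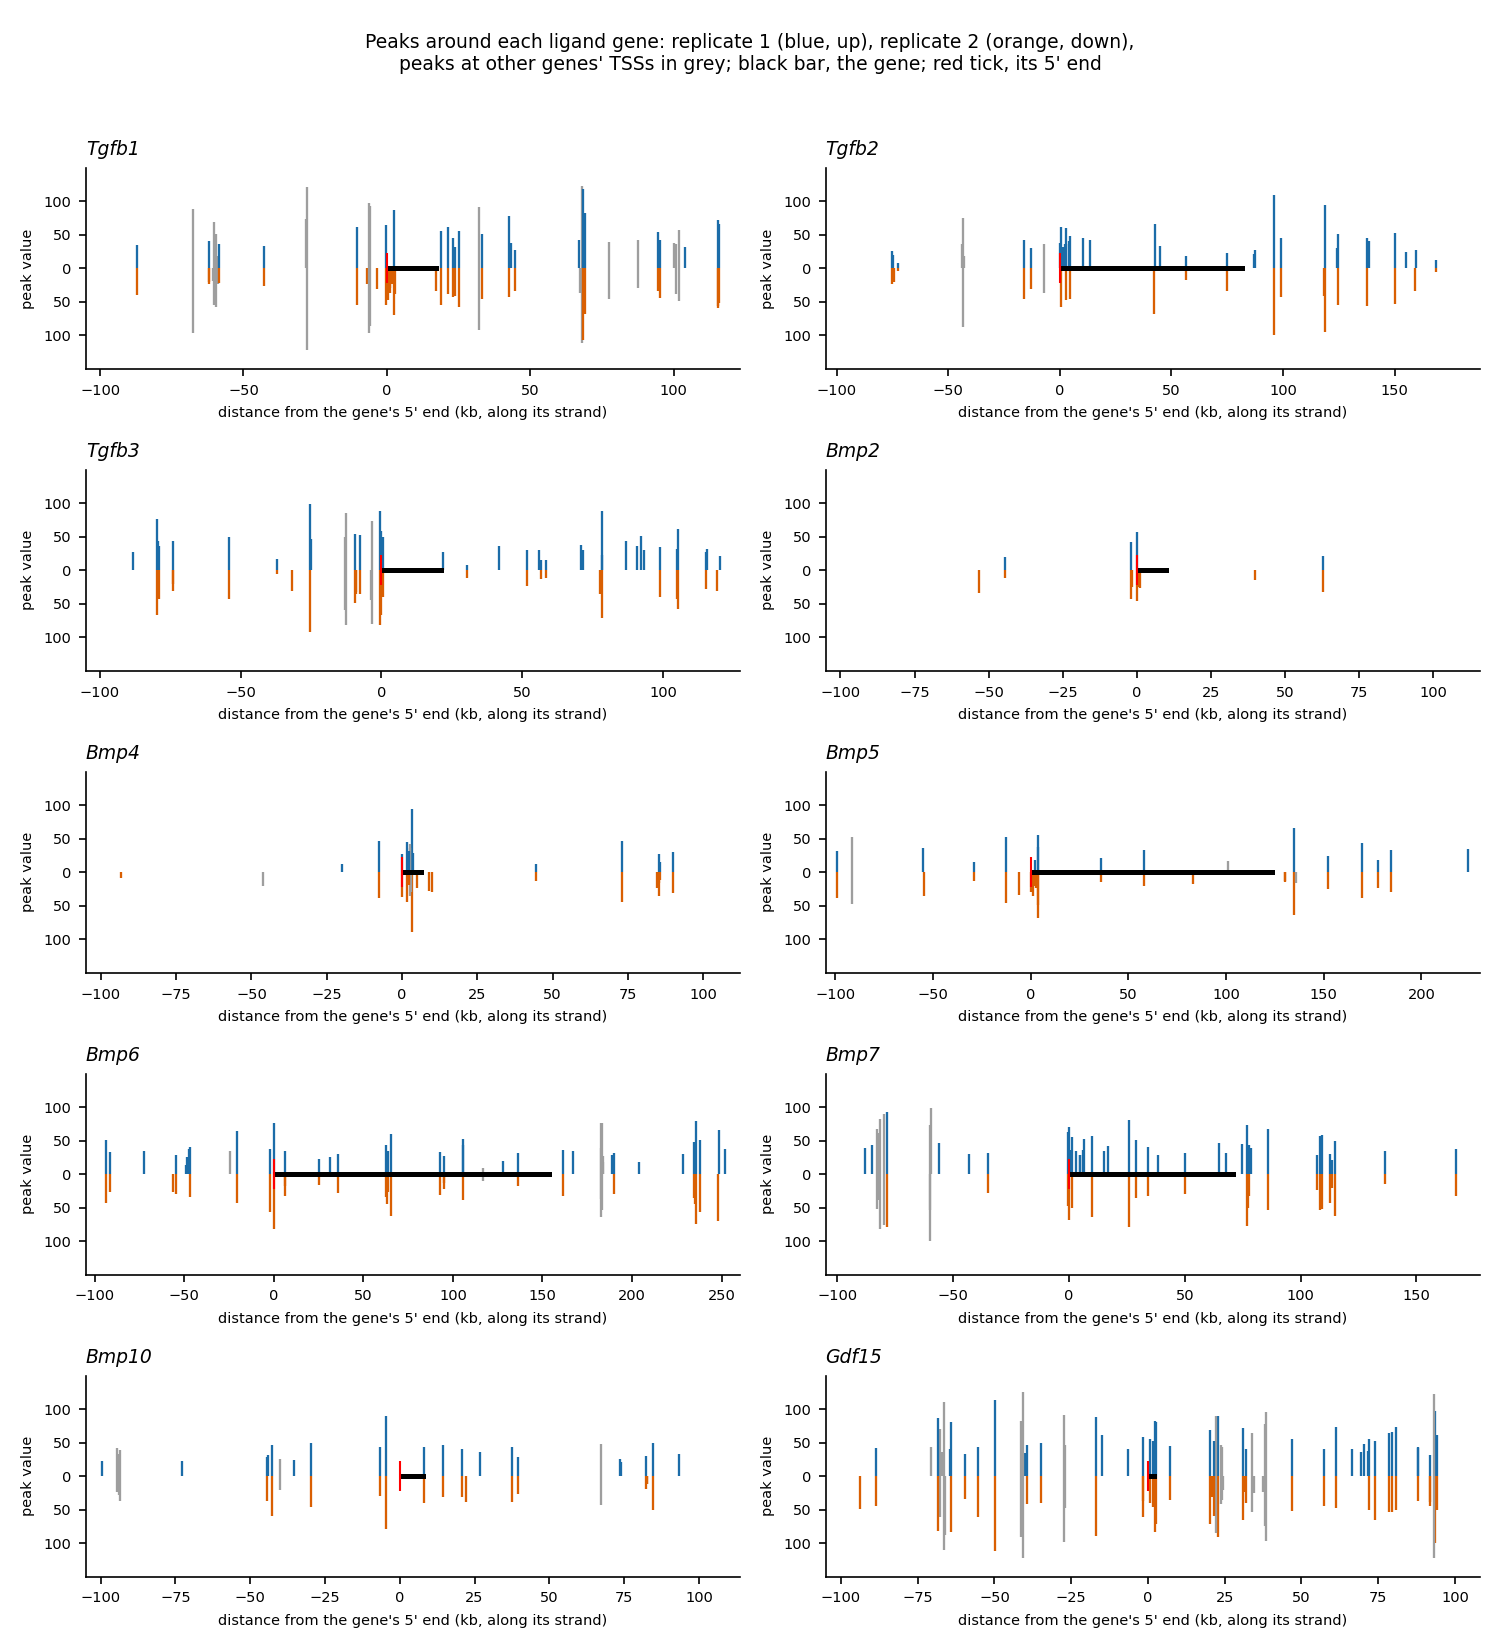
Peaks in each gene and 100 kb on either side, by distance from the gene's 5′ end along its strand (horizontal axis, kb), with the authors' value upward for replicate 1 (blue) and downward for replicate 2 (orange). Peaks at TSSs of other genes are grey, the black bar is the gene and the red tick its 5′ end; Bmp2 stands in a nearly empty window of 4 and 9 peaks, Bmp10 has its highest peak 4723 bp upstream, and Tgfb2 has its highest beyond the 3′ end.

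Over all 10 genes the windows held 323 peaks in replicate 1 and 286 in replicate 2 (304.5 ± 26.2, SD, n = 2), and no windows overlapped. Promoters of the ligands themselves took up 17 and 19 of these, gene bodies 54 and 43, TSSs of other genes 62 and 59, and the remaining flanks 190 and 165. Measured to gene bodies, a ligand gene was the nearest protein-coding gene of 128 and 117 peaks. The density ran from 3.08 peaks per 100 kb at Bmp2, through 6.15 at Bmp5 and 7.97 at Bmp4, to 20.6 at Tgfb1 and 27.6 at Gdf15. Between them Tgfb2, Bmp6 and Bmp10 stood at 10.6, 10.7 and 10.8, a spacing far below their SDs of 3.50, 2.39 and 1.69. Bmp7 at 13.2 ± 4.15 and Tgfb3 at 15.3 ± 2.54 (SD, n = 2) also lay within an SD of each other. The median of the 10 genes was 10.7 per 100 kb against 9.76 for all protein-coding genes, and for distal peaks 8.49 against 5.65.

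**Figure D3:**
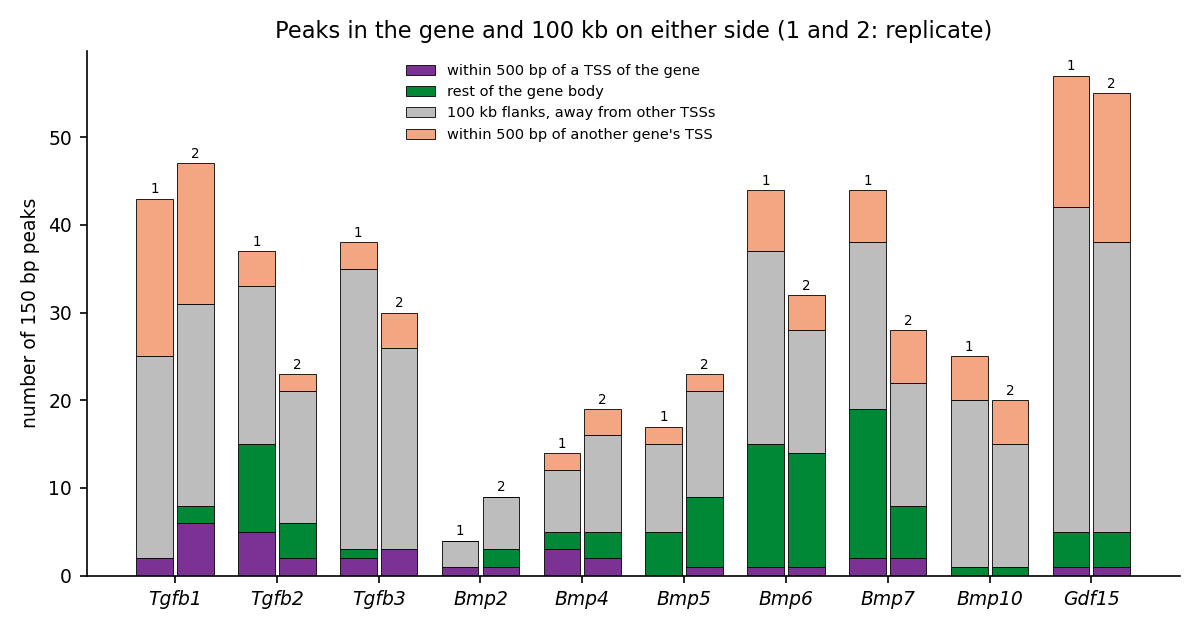
Number of 150 bp peaks (vertical axis) in each ligand gene and 100 kb on either side, with replicate 1 as the left and replicate 2 as the right bar, split by position. Gdf15 and Tgfb1 have the tallest bars, with 57 and 55 and with 43 and 47 peaks, and Bmp2 the shortest, with 4 and 9; Tgfb2, Bmp6 and Bmp7 have more peaks in replicate 1.

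The number of peaks per gene did not move in 1 direction between the libraries. Replicate 1 had more peaks at Tgfb2, Tgfb3, Bmp6, Bmp7, Bmp10 and Gdf15, and replicate 2 had more at Tgfb1, Bmp2, Bmp4 and Bmp5, with ratios from 0.444 at Bmp2 to 1.61 at Tgfb2. Over the 20506 protein-coding genes with a peak in both libraries, the quartiles of this ratio were 0.973 and 1.26 and the 5th and 95th percentiles 0.75 and 1.65. Bmp2, Bmp4 (0.737) and Bmp5 (0.739) lay below that 5th percentile, and no ligand gene lay above the 95th. Those below it had the fewest peaks of the 10 genes, with means of 6.5, 16.5 and 20. Ratios of small counts vary more, and these ratios were not tested. Of the ligand peaks, 70.9% in replicate 1 and 80.8% in replicate 2 overlapped a peak of the other library by at least 1 bp, and of all peaks 70.1% and 79.8% did. Across 226 paired sites the value was higher in replicate 1 at 143, or 63.3%, against 68.0% of all paired peaks, and the median difference of replicate 1 minus replicate 2 was 4 in both sets. The highest values without a partner were 74 in the Tgfb1 window in replicate 1 and 88 in the Gdf15 window in replicate 2. The peak of 74 lay 190 bp from the Bckdha TSS and overlapped a hotspot of replicate 2.

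The receptors and intracellular parts of the pathway had promoter peaks at nearly every gene listed. Beside the 63.7% of all protein-coding genes, promoter peaks in both libraries stood at 11 of 12 type I and II receptors, led by the TGF-beta type I receptor Tgfbr1 (116 and 111), the BMP type I receptor Acvr1 (117 and 98) and the activin type II receptor Acvr2b (95 and 92), and Amhr2, the receptor of anti-Müllerian hormone, had none. All 7 co-receptors had one, with the highest values at the pseudoreceptor Bambi (130 and 111), the BMP co-receptor Rgmb (113 and 109) and betaglycan, encoded by Tgfbr3 (100 and 85). All 8 SMAD genes had one, the highest at Smad3 (112 and 108), Smad2 (110 and 109) and the inhibitory Smad6 (113 and 106). Over the listed genes that both libraries called, the median of the highest promoter value (mean of both libraries) was 83.5 for receptors, 83.5 for co-receptors and 96.8 for SMADs, and 69.8 for the 8 ligand genes. Among these ligand genes, the value of Tgfb3 depended on the 500 bp limit. Those of Tgfb1 and Bmp4 depended on starts of transcripts that are not protein-coding.

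Of 14 target genes of the pathway, 13 carried a promoter peak in both libraries, beside 63.7% of all genes, with a median value of 97.5 over these 13, led by Id2 (117 in each library), Id4 (123 and 110), which encode inhibitors of helix-loop-helix factors, and Smad6, which with Smad7 stands in both lists. Ski, a repressor of SMADs, had a peak in replicate 1 only, of 35. All 11 genes for latency, processing and matrix storage had one, with a median of 69.5, led by the integrin subunit Itgav (95 and 81), the latent TGF-beta binding protein Ltbp3 (87 and 81) and Itgb8 (76 and 71).

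Of 11 secreted inhibitors, 7 carried a promoter peak in both libraries, or 63.6%, near the 63.7% of all genes, with a median of 44.5, led by the activin antagonist Fstl3 (109 and 84), Twsg1 (97 and 86) and Bmper (70 and 56), both modulators of BMPs. Grem1, Sost, Dand5 and Cer1 had none in either library. Of 23 other ligands of the superfamily, 10 had one in both libraries, or 43.5%, with a median of 44.0, led by Gdf9 (107 and 113), Inhbe (68 and 54) and Gdf11 (59 and 60). A further 3, Bmp3, Bmp15 and Gdf5, had one in replicate 2 only, of 22, 15 and 25. Gdf1, Gdf2, Gdf3, Gdf7, Mstn, Inha, Inhbc, Nodal, Lefty2 and Amh had none in either library. No list was tested against the other genes, and CpG content, which goes with promoter peaks across genes, was not matched. Promoters shared with a neighbouring gene were not separated in these lists.

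**Figure D4:**
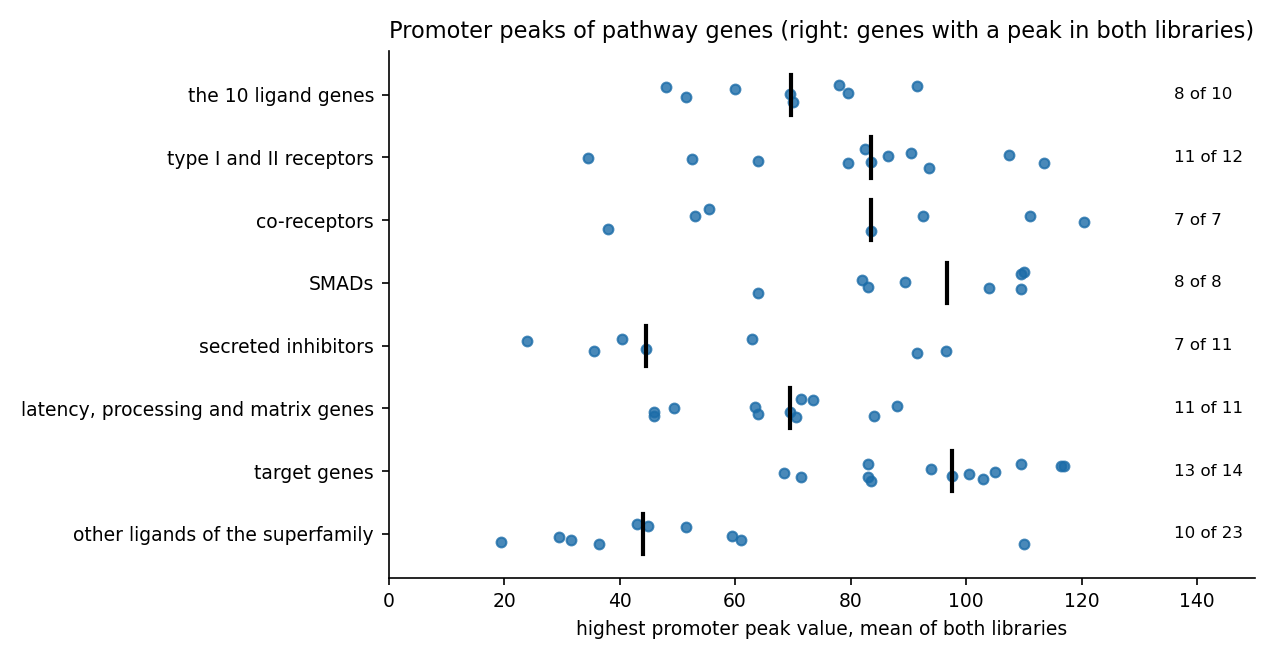
Highest promoter peak value (horizontal axis, mean of both libraries) of each gene with a promoter peak in both libraries, by list, with the list's median as a black bar and the number of such genes at the right. The 10 ligand genes, with 8 points and a median of 69.8, lie between SMADs and target genes (medians of 96.8 and 97.5) and the secreted inhibitors and other ligands (44.5 and 44.0).

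The motif content of the ligand peaks was set beside that of all peaks of each library. The short SMAD motif GTCTG was in 32.5% of the 323 and of the 286 ligand peaks and in 32.1% of all peaks of each library, and the full SMAD palindrome GTCTAGAC was in 0 of them and in 0.131% and 0.125% of all peaks. The BMP SMAD element GGCGCC was in 3.72% and 4.2% of ligand peaks, against 4.08% and 4.60%. The letters AGATAA, bound by GATA factors of cardiomyocytes and other cells, were in 6.19% and 5.94%, against 8.47% and 7.98%. Matches to the MEF2 consensus were in 7 and 6 ligand peaks, or 2.17% and 2.10%, against 4.05% and 4.15%. The AP-1 motif was in 5.26% and 6.64%, against 7.25% and 7.17%. The GC box GGGCGG was in 16.1% and 17.8%, against 12.1% and 13.3%. The TEAD motif CATTCC was in 12.1% and 11.2%, against 10.9% and 11.0%, and the ETS motif CCGGAA in 5.88% and 7.69%, against 4.90% and 5.22%. The HAND E-box CATCTG was in 13.6% of ligand peaks against 11.5% in replicate 1 and in 10.8% against 11.5% in replicate 2. The NKX2 motif CACTTAA was in 1.24% and 1.05%, against 1.56% in each library. The element TGATGNAA of ATF4 and CHOP was in 2.17% and 1.05%, against 1.95% and 1.96%. The T-box motif AGGTGTGA was in 0.310% and 0%, against 0.454% and 0.461%. The cyclic AMP element TGACGTCA was in 0.310% and 0%, against 0.605% and 0.670%. Matches to the SRF consensus were in 0.619% and 0.699%, against 0.862% and 0.877%. All motifs were searched as exact matches on both strands, a match says nothing of binding, and these shares were not tested. The median G and C content was 54.0% and 54.7% in ligand peaks and 51.3% in all peaks of each library, and the share lying mostly in repeats was 2.79% and 3.50%, against 5.87% and 4.77%.

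In the RefSeq promoter table for GRCm38.p6, which covers 250 bases before to 50 after a start, 7 of the 10 genes were found, with 8 sequences. The short SMAD motif was in the promoters of Tgfb2, Bmp5, Bmp6 and Gdf15, and 49.6% of all 32851 promoters of the table held it. The GC box was in those of Tgfb1, Bmp4 and Bmp6, against 35.7% of all, and the table's Bmp6 sequence, at chr13:38345466-38345765, belongs to another start than the GENCODE 5′ end and does not overlap the Bmp6 peak shown above. The letters AGATAA were in the promoters of Tgfb2 and Bmp10, against 11.2%. None held GGCGCC, which 11.9% of all promoters did.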

How the data were processed

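DNase-seq of 2 newborn heart libraries (1 group) was analysed from deposited lists on mm10. Per the text files that the authors deposited, calling was done per replicate, without pooling, from filtered alignments. The aligner, caller, versions and thresholds were not given in the sources used here, and a caller's threshold decides which weak sites are listed. The deposited peak lists hold 1 signal value per 150 bp peak, with no normalization stated, so values were compared between libraries only as a description. The deposited hotspot lists hold a −log10 q-value, from 1.30 upward and capped at 100. The files listed 164847 peaks and 152666 hotspots for replicate 1, and 144867 and 132765 for replicate 2, of which 164657, 152488, 144708 and 132624 on chromosomes 1 to 19, X and Y were used. Read totals are unknown, so no counting interval could be given.

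Genes and TSSs came from GENCODE vM21, and sequences from GRCm38.p6, whose primary sequence is that of mm10. A peak belonged to a gene by its centre: promoter (within 500 bp of a TSS of the gene), other TSS, gene body, or flank (100 kb). A distal peak lay over 1 kb from every TSS. Peaks sharing 1 bp or more counted as found in both libraries, and each paired site joins 1 peak of each library. No test was made, and the spread is the SD of 2 libraries. All 10 ligand genes were named, as were the 3 genes of each list with the highest promoter value and those with no promoter peak, each gene's highest sites and its nearest neighbours. Genes in exactly 1 library and some second sites were added after their values were seen. The genes and lists were chosen with earlier results of these data known. The alternatives tried were other promoter and flank widths, the peaks at or above each library's median, stricter overlap, protein-coding TSSs, nearest genes and each library alone. Python 3.11.15, numpy 2.4.6, pandas 2.3.3 and pysam 0.24.0 were used, and the overlap and distance functions were tested on simulated data.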

Additional observations from a re-analysis of the deposited data

How the results depend on the processing

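Promoter peaks were shared by both libraries at 8 of the 10 genes, also with a window of 1000 bp, with protein-coding TSSs only and with the stronger peaks (at or above each library's median). With a window of 250 bp it was 6, since the Gdf15 peak and the replicate 2 peaks of Tgfb2 lie farther from a TSS. Either library alone gave 8 to 9. Promoter hotspots were in both libraries at 8 genes (8 to 9 in either library alone), but at 4 when only hotspots with the capped q-value counted. These were Tgfb2, Tgfb3, Bmp4 and Bmp6. At Tgfb2 and Bmp4 only a hotspot at an internal TSS reached the cap in both libraries. The total of 304.5 peaks per library was 192 with a flank of 50 kb, 483 with 200 kb, 193.5 with the stronger peaks and 122.5 when the ligand had to be the nearest protein-coding gene, and 286 to 323 in either library alone. The median density of 10.7 peaks per 100 kb was 5.85 with the stronger peaks and 4.02 by nearest gene, as fewer peaks count, and 9.38 to 12.7 in either library alone. The share of peaks found in both libraries, 75.8% as a mean, ran from 72.3% with an overlap of 75 bp to 78.8% against hotspots, and from 70.9% to 80.8% in either library alone. With TSSs of protein-coding transcripts only, the promoter value went from 91.5 to 32.5 at Bmp4 and from 78.0 to 59.5 at Tgfb1, and Tgfb1 also had 59.5 with the 250 bp window, where Tgfb2 and Gdf15 had no value over both libraries. Without replicate 2, Bmp2 had 4 peaks and not 6.5. Unknown depth and calling thresholds limit every statement on a missing peak. No paired analysis was possible because the labels give only 1 group.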
